A study of Sus scrofa with 4 samples.

Results

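Genes that store and release the fat of the lipid droplet were examined in porcine intramuscular preadipocyte (PIP) cells and in the porcine mature adipocytes (pMA) obtained from them. The 10 genes, chosen by name, were PLIN1, PLIN2, PLIN3, FITM1, LPIN1, DGAT1, DGAT2, PNPLA2, LIPE and MGLL. Every non-control probe that carried one of these names in the array files was used. Of the 10 genes 9 were found, with 17 of the 43603 probes and 9 of the 34853 gene names on the array. No probe was named DGAT1, nor did any of the 10 older names of these genes appear.

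Gene expression had been measured on 4 arrays, 1 for each of 4 conditions, to follow the transcriptome through differentiation and through stimulation with serotonin or TNF-α. PIP cells are a line from the muscle of 1 pig, here between passages 26 and 35, so the conditions are cultures of a single animal's cells. All groups were grown in medium with 10% serum to 4 days after confluence. PIP cells were collected without differentiation. The pMA had a further 4 days in medium with insulin (50 ng/ml), dexamethasone (0.25 μM), octanoate (2 mM) and oleate (200 μM), so both fatty acids and the hormones were present in all 3 groups of pMA and absent from the PIP cells. Stimulated pMA received serotonin at 100 μM, which the labels write per ml, or TNF-α at 2.5 µg/ml, each for 12 h. RNA was pooled within a group before labelling, and the 4 arrays lay on 1 slide. With 1 array in each group no difference between arrays has a replicate array and no test was possible. The values below describe these 4 arrays. A fall in the RNA of a cell type and a fall in the number of its cells cannot be told apart in such pools. Separately, the study ran RT-qPCR on selected genes in independent experiments. It reported significant overexpression of LPIN after serotonin.

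The lipid droplet is a core of triacylglycerol and sterol esters within a single layer of phospholipid, and perilipins coat its surface. Triacylglycerol is assembled at the endoplasmic reticulum, where lipins make diacylglycerol and the DGAT enzymes add the last fatty acid, and FIT proteins help to divide the new lipid into droplets. Fat leaves the droplet by stepwise hydrolysis, in which ATGL (PNPLA2) opens triacylglycerol, hormone-sensitive lipase (LIPE) acts on diacylglycerol and monoacylglycerol lipase (MGLL) frees the last fatty acid.

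The level of a gene rests on DNA oligonucleotides of 60 bases. Probes of PLIN2, FITM1, DGAT2 and LPIN1 are shown in lower case, 5′ to 3′, as the array files give them. The number after the gene name is the base of the transcript at which the files place the probe. PLIN2 and FITM1 each have 1 probe, so all their values rest on the sequence shown, while the pairs of DGAT2 and of LPIN1 are shown because the probes of a pair gave unequal ratios in differentiation or after serotonin. LPIN1 has further probes that are not shown, among them that of highest mean level, at base 4198.
PLIN2, base 933: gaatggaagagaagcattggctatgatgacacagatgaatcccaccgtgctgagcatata
FITM1, base 692: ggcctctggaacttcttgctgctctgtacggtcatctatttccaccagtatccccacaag
DGAT2, base 508: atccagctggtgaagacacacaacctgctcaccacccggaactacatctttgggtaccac
DGAT2, base 759: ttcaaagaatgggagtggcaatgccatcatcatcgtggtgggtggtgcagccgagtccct
LPIN1, base 208: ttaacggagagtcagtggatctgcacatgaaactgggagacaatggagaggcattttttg
LPIN1, base 594: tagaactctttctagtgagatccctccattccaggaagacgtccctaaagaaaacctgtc

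None of the 17 probes shared a stretch of 20 bases with any other probe on the array. Their GC content ran from 35% to 60%, against a median of 41.7% over all probes. The files place none of the probes on a chromosome and name no genome build, so no genome position is given.

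A level here is the log2 of the processed intensity after subtraction of the array's 75th percentile, so that a level of 0 is the 75th percentile of all spots. The 75th percentile of intensity ran from 479 to 566 over the 4 arrays, the share of probes well above background ran from 56.5% to 66.0%, and no spot was saturated. Apart from the sums of marker genes, levels of different probes were not compared, because probes differ in how well they bind. The share of a gene in such a sum depends on this binding too, and the sums do not measure amounts of a cell type. The error after a ratio is that of the scanner software, which gives each spot an error of at least 10.0%. It covers 2 spots and not the spread between cultures. The standard deviation between repeated spots was 0.10 to 0.13 on the log2 scale. Of the 17 probes, 12 were well above background on all 4 arrays. Where a probe was dim on 1 of the arrays compared, the larger of its own value and the lowest value among well-measured probes of that array was taken, and the fold is given as a lower bound. Where its own value was the larger, the fold is that of the measured levels and not a bound. A gene is described by its probe of highest mean level, with its other probes beside it, and a gene is said to have risen or fallen where it passed 2-fold, the cutoff of the study's methods.

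The labelled cell types were checked against marker genes. Of 10 adipocyte markers 9 were on the array, and 7 were well above background in PIP cells, 7 in pMA, 7 after serotonin and 8 after TNF-α. Their summed level, on the linear scale where 1 is the 75th percentile, was 2.71, 4.20, 12.8 and 9.57 in the same order. LPL, lipoprotein lipase, made up 10.65 of the sum after serotonin and 4.86 of that after TNF-α, and without it the sums were 1.17, 2.20, 2.12 and 4.72. ADIPOQ, which encodes adiponectin, was well above background in PIP cells alone, and CEBPA, an adipogenic transcription factor, after TNF-α alone. FABP4, the fatty acid carrier of adipocytes, was dim in PIP cells, at -4.76, and had levels of -1.67 in pMA, -4.44 after serotonin and -0.23 after TNF-α, so that among the pMA it was lowest on the serotonin array. Markers of skeletal muscle were also present, with 4 of 7 well above background in PIP cells and 5 of 7 in each group of pMA. Their summed level was 642 in PIP cells, 657 in pMA, 175 after serotonin and 610 after TNF-α, and it came mainly from ACTA1, skeletal muscle actin. MYOD1 and MYF5 were not well above background on any array, whereas PAX7 and MYOG, of the same list, were on all 4. PAX7 had levels of -0.63 in PIP cells, 0.17 in pMA, 0.56 after serotonin and 0.22 after TNF-α. Preadipocyte and fibroblast markers, 4 of 6 on the array, had summed levels between 401 and 526, macrophage markers, 3 of 6, between 1.59 and 3.08, and endothelial markers, 5 of 5, between 0.437 and 1.56. The macrophage sum came mainly from CD14 and was highest after TNF-α, and the endothelial sum was lowest after serotonin. The part of these markers in the results below was not tested.

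Of the 10 genes, PLIN2 stood out in differentiation. It was the only one of 8 genes with a ratio that rose at least 2-fold from PIP cells to pMA, and none fell that far. For comparison, 9.94% of the 18633 gene names with a ratio were at least 2-fold higher in pMA and 3.56% at least 2-fold lower. Ratios were above 0 for 6 of the 8 genes (58.1% of all gene names) and below 0 for 2. Their median log2 ratio was 0.41, with MGLL at its bound, while the median of all gene names was 0.12. Scaling to the array median moved the median of all gene names by -0.35 and scaling to the spike-in controls moved it by 0.44, so ratios relative to all genes are given beside those whose sign turned with the scaling.

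PLIN2, the perilipin found on droplets of most cell types, had an intensity of 630 in PIP cells, 5138 in pMA, 12127 after serotonin and 6343 after TNF-α. These correspond to log2 levels of 0.29, 3.42, 4.42 and 3.50. The PIP array was the lowest and the serotonin array the highest, and the unstimulated and the TNF-α arrays lay close together. The log2 ratio of pMA to PIP cells was 3.14 ± 0.20 (scanner error), an 8.79-fold rise. It lay between 2.79 and 3.56 under the 6 scalings tried, and it exceeded the median of all genes by 3.01.

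PLIN1, the coat protein typical of the large droplets of fat cells, was not well above background on any of the 4 arrays, with levels from -7.27 to -6.59. No ratio was formed for it. PLIN3, a perilipin that is also found in the cytosol, had levels of -0.15 in PIP cells, 0.22 in pMA, 0.18 after serotonin and 0.85 after TNF-α. Its ratio of pMA to PIP cells was 0.38 ± 0.20. The first 3 arrays were near each other and the TNF-α array was the highest.

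FITM1, a FIT protein known mainly from muscle, had levels of -4.36 in PIP cells, -3.49 in pMA, -2.91 after serotonin and -3.87 after TNF-α. All 4 were well above background, whose faintest signals lay at -5.13, -4.64, -5.12 and -5.25 on the same arrays. The ratio of pMA to PIP cells was 0.87 ± 0.32, with a larger scanner error than for brighter spots. It ranged from 0.32 to 1.29 over the scalings, and passed 2-fold only with the spike-in controls.

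**Figure D1:**
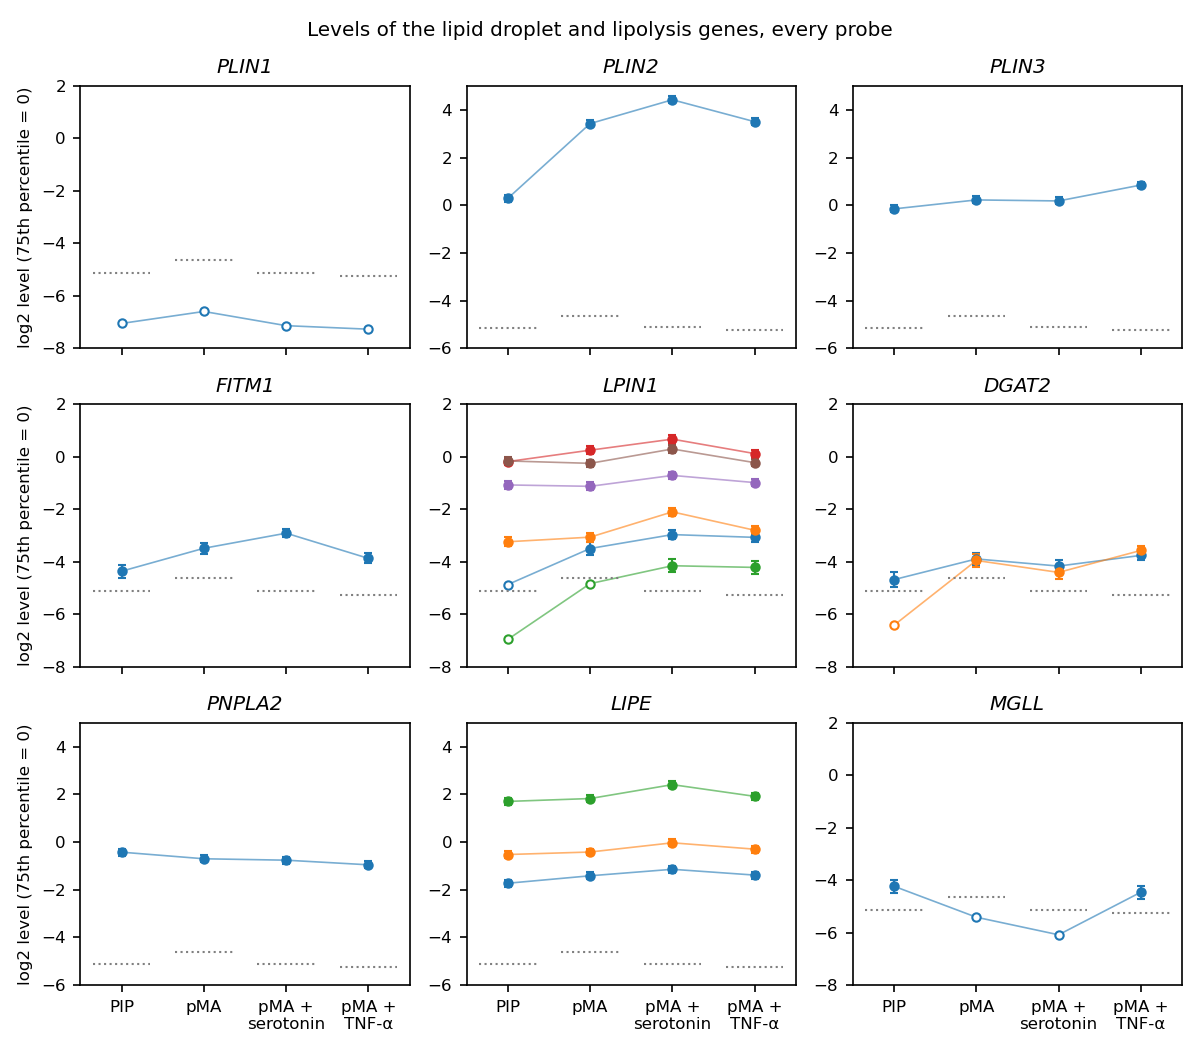
Log2 level (array 75th percentile set to 0) of each of the 17 probes on the 4 arrays, 1 panel for each gene, with a colour for each probe of a gene. Filled points were well above background and carry the scanner error of the spot, open points were not, and grey dotted lines mark the faintest signal well above background on each array; the top of the scale differs between panels. PLIN2 went from 0.29 in PIP cells to 4.42 after serotonin, while PLIN1 lay below the dotted lines throughout.

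Among the enzymes of triacylglycerol synthesis, LPIN1, the phosphatidate phosphatase that supplies diacylglycerol, had 6 probes. Its probe of highest mean level, at base 4198, had levels of -0.18 in PIP cells, 0.25 in pMA, 0.67 after serotonin and 0.12 after TNF-α, and a ratio of pMA to PIP cells of 0.43 ± 0.20. The other probes did not give 1 value. The probe at base 208 was dim in PIP cells, with levels of -4.87, -3.50, -2.97 and -3.07 in the order of the arrays. Its level was 2.59-fold higher in pMA. This is not a lower bound, because its own value in PIP cells exceeded the faintest well-measured signal of -5.13. Its spots had scanner errors of 26.4% in PIP cells and 16.8% in pMA. The probe at base 594 had a ratio of 0.18 ± 0.24, and those at bases 4804 and 5331 had ratios of -0.05 ± 0.21 and -0.09 ± 0.20. The probe at base 1522 was dim on both arrays. The probes at bases 4198, 4804 and 5331, placed on a different transcript record from the others, were well above background on all 4 arrays. Of those at bases 208, 594 and 1522, the one that passed 2-fold and the one at base 1522 were not.

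DGAT2, which adds the last fatty acid to diacylglycerol, had levels of -4.68 in PIP cells, -3.89 in pMA, -4.17 after serotonin and -3.76 after TNF-α on its probe at base 508. The 3 groups of pMA lay above the PIP array, with a ratio of pMA to PIP cells of 0.79 ± 0.36. On its probe at base 759 the levels were -6.42, which was dim, -3.95, -4.41 and -3.57, and the level on this probe was at least 2.26-fold higher in pMA. Both probes gave the PIP array as the lowest of the 4, but only the one at base 759, dim in PIP cells, passed 2-fold.

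The lipases PNPLA2 and LIPE did not reach 2-fold in differentiation, and MGLL had only a lower bound. PNPLA2 had levels of -0.43 in PIP cells, -0.71 in pMA, -0.77 after serotonin and -0.96 after TNF-α, which spanned 0.53 in all. Its ratio of pMA to PIP cells was -0.28 ± 0.21, which became 0.14 with the spike-in controls, and relative to the median of all genes it lay between -0.42 and -0.33 under the 6 scalings. LIPE had levels of 1.70, 1.82, 2.40 and 1.91 on its probe at base 3065, in the order PIP cells, pMA, serotonin and TNF-α. Its ratio of pMA to PIP cells was 0.12 ± 0.20, which became -0.23 after scaling to the array median and lay between -0.02 and 0.16 relative to the median of all genes. Its other probes gave 0.10 and 0.31. The unstimulated arrays of PIP cells and pMA were thus close for both of these lipases.

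MGLL was well above background in PIP cells, at -4.24, and after TNF-α, at -4.46. It was dim in pMA, at -5.42, and after serotonin, at -6.09. Its level in pMA was at least 1.32-fold lower than in PIP cells. Without the filter on dim probes the difference of the measured levels was -1.18, a value that rests on a spot the scanner did not tell from its background.

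**Figure D2:**
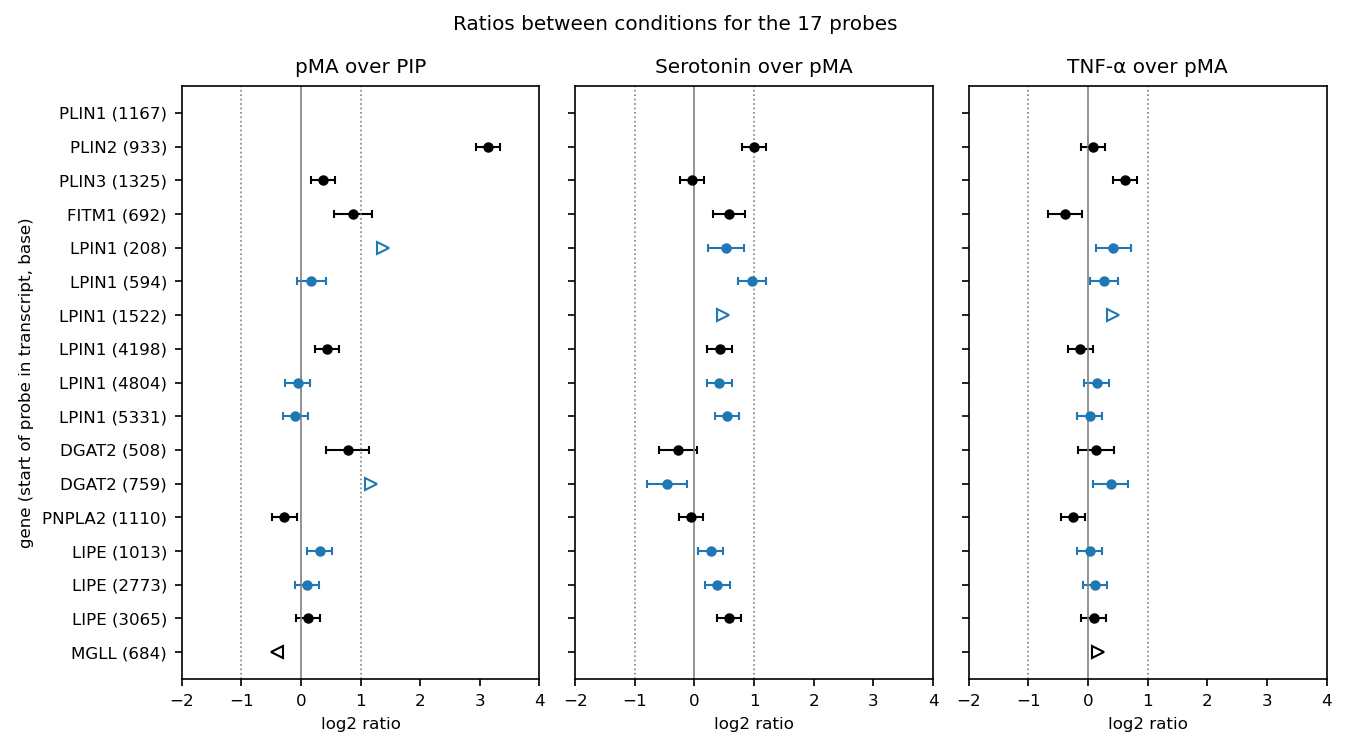
Log2 ratio of the 17 probes in 3 comparisons, with the scanner error as a bar; the number after a gene is the base of the transcript at which its probe starts. Black marks the probe that represents its gene and blue the others, dotted lines mark 2-fold, and probes dim on both arrays have no symbol. Open triangles are probes dim on 1 of the arrays compared. They are lower bounds of a change, except LPIN1 (208) in pMA over PIP cells, which is the difference of the measured levels. PLIN2 in pMA over PIP cells lay at 3.14, and after serotonin it lay at 1.00 beside the dotted line.

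Stimulated pMA were then set against the same array of unstimulated pMA. Since that array enters both comparisons, its own error moves both sets of ratios together. After serotonin, none of 7 genes passed 2-fold, where 2.08% of 19095 gene names were at least 2-fold higher and 4.73% at least 2-fold lower. Of the 7 ratios 4 were above 0 (51.2% of all gene names) and 3 below, with a median of 0.42 against 0.01 for all gene names.

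PLIN2 was the nearest to the cutoff after serotonin. Its log2 ratio was 1.00 ± 0.20, a 2.00-fold difference that as computed (1.997) fell short of the cutoff, and it passed under 4 of the 5 other scalings. Over the 6 scalings the ratio lay between 0.99 and 1.12. The call therefore turned on a shift far smaller than the error, while the size hardly moved.

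LIPE had a ratio of 0.58 ± 0.20 after serotonin, and its probes at bases 1013 and 2773 gave 0.27 ± 0.21 and 0.39 ± 0.20. All 3 probes had their highest level on the serotonin array. LPIN1 had a ratio of 0.42 ± 0.20 on its brightest probe. Its 4 other probes measured on both arrays gave 0.42 to 0.96, the last at base 594, and its probe at base 1522, dim in pMA, was at least 1.40-fold higher. All 6 probes of LPIN1 also had their highest level on the serotonin array, although at bases 208 and 1522 the TNF-α array was lower by only 0.11 ± 0.24 and 0.06 ± 0.34.

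FITM1 had a ratio of 0.58 ± 0.26 after serotonin. DGAT2 had ratios of -0.27 ± 0.32 and -0.46 ± 0.33 on its probes at bases 508 and 759, within or close to their errors. PLIN3, at -0.04 ± 0.20, and PNPLA2, at -0.06 ± 0.21, were close to 0 and changed sign with the scaling. Relative to the median of all genes they lay between -0.09 and 0.05 and between -0.10 and 0.01. MGLL was dim on both arrays and had no ratio. In the cells stimulated with serotonin the summed level of muscle markers, mainly ACTA1, was the lowest of the 4 arrays. ACTA1, DES and MYH1 had lower levels than in pMA, but the dim MYH1 was as low after TNF-α (-4.60) as after serotonin (-4.58). MYOG was at -0.38 against -0.37 in pMA, and PAX7 was highest on the serotonin array, at 0.56. Of the 9 adipocyte markers 2, LPL and GPD1, had their highest level there.

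After TNF-α, none of 8 genes passed 2-fold, where 2.21% of 19782 gene names were at least 2-fold higher and 1.34% at least 2-fold lower. Of the 8 ratios 5 were above 0 (50.7% of all gene names) and 3 below, with a median of 0.09 against 0.01 for all gene names. PLIN3 lay farthest from 0, with a ratio of 0.62 ± 0.20, or 1.54-fold, and it stayed between 0.54 and 0.73 over the scalings. PLIN2 had a ratio of 0.08 ± 0.20, which turned just below 0 under one scaling and was 0.19 at the highest, and between 0.07 and 0.23 relative to the median of all genes.

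FITM1 had a ratio of -0.39 ± 0.28 after TNF-α and PNPLA2 of -0.25 ± 0.21. DGAT2 gave 0.14 ± 0.30 and 0.38 ± 0.29 on its 2 probes, and the first of these was -0.17 with normexp background correction and between -0.10 and 0.14 relative to the median of all genes. The LIPE probes gave 0.03 to 0.12. For LPIN1 the brightest probe gave -0.13 ± 0.20, while 4 other measured probes gave 0.03 to 0.43 and the probe at base 1522 was at least 1.34-fold higher. For MGLL, which was dim without stimulation, TNF-α gave a level at least 1.13-fold higher. Apart from PLIN3, no measured gene lay more than 2 scanner errors from 0 on the probe that represents it.

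The arrays of both stimulations were also compared directly, without the unstimulated array. None of 8 genes passed 2-fold, where 1.83% of 21862 gene names were at least 2-fold higher after serotonin than after TNF-α and 5.07% at least 2-fold lower. The median of the 8 was 0.34, against -0.04 for all gene names. FITM1, at 0.96 ± 0.25, and PLIN2, at 0.92 ± 0.20, were higher after serotonin but short of 2-fold. LPIN1 was at 0.55 ± 0.20 and LIPE at 0.49 ± 0.20, with all 6 and all 3 probes above 0. PLIN3 was at -0.67 ± 0.20, DGAT2 at -0.41 ± 0.28 with -0.84 ± 0.29 on its other probe, and PNPLA2 at 0.19 ± 0.21. MGLL was at least 1.58-fold lower after serotonin than after TNF-α, since it was measured on the TNF-α array alone of the pair. The coat proteins thus differed in order, PLIN2 being higher on the serotonin array and PLIN3 on the TNF-α array.

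**Figure D3:**
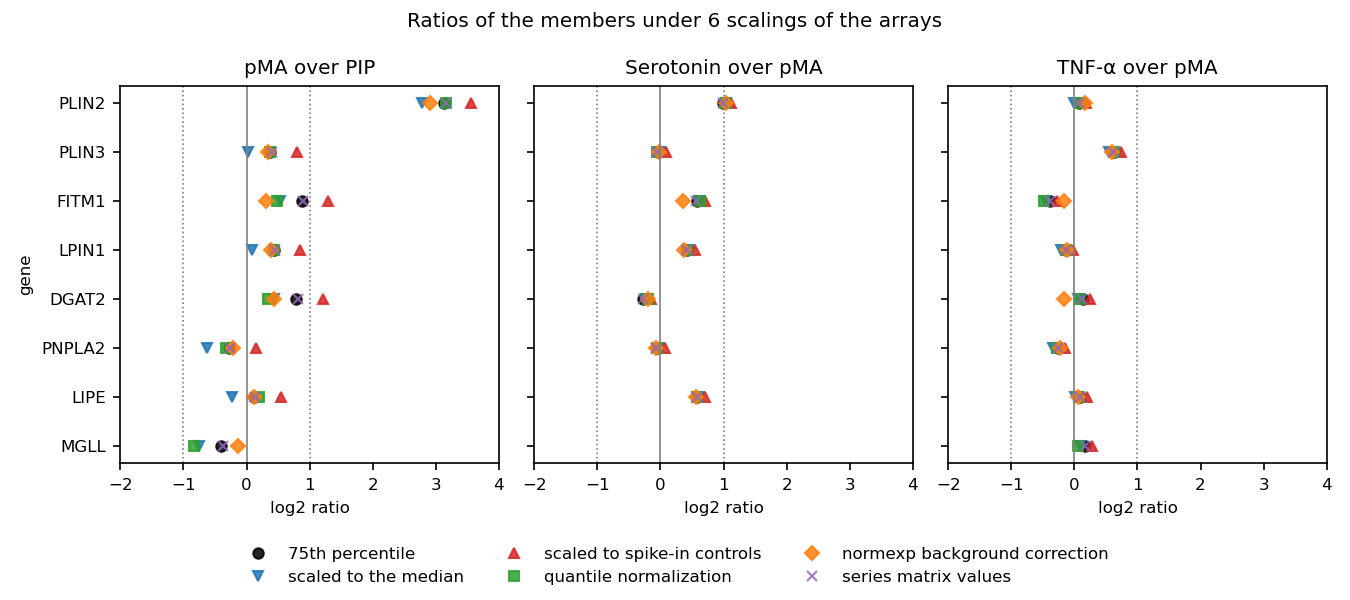
Log2 ratio of the 8 genes with a ratio in 3 comparisons under 6 ways of scaling or background-correcting the arrays, each with its own symbol; dotted lines mark 2-fold and the values of MGLL are bounds. In pMA over PIP cells the scalings spread the ratio of PLIN2 from 2.79 to 3.56 and moved PNPLA2 and LIPE across 0, while after serotonin the ratio of PLIN2 stayed between 0.99 and 1.12.

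The other genes of the pathway were taken from 4 lists. Each count stands beside the share of all gene names past 2-fold in the same direction, and with 5 to 17 genes in a list 1 such gene says nothing of the list. The shifts between scalings given above hold for them too, so that in differentiation CAV1, FAAH and ADRA2A, all named here at 1.20 or less in size, could lie on either side of 2-fold. Genes short of 2-fold could likewise pass it, such as LIPA (0.88) in differentiation. The same holds for FITM2 (0.97) and PNPLA4 (0.91) after serotonin and for PPAP2C (0.95) after TNF-α. Between the stimulations PPAP2C, at -1.05, could fall short. These lists were not run under normexp or quantile scaling, which can move dim probes further (FITM1 to 0.32 under normexp). Whether the dim PPAP2C stays past 2-fold under them was not tested. In triacylglycerol synthesis the array held 13 of 18 listed genes, 12 with a ratio. From PIP cells to pMA 1 of the 12 rose at least 2-fold (9.94% of all gene names) and none fell (3.56%), with a median of 0.15. The gene was PPAP2C, a lipid phosphatase, with levels of -3.55 in PIP cells and -2.09 in pMA and a ratio of 1.46 ± 0.25. After serotonin 1 rose (2.08% of all gene names) and none fell (4.73%), with a median of 0.10. This was GK, glycerol kinase, which returns glycerol to triacylglycerol synthesis, with levels of -2.30 in pMA and -1.12 after serotonin. Its ratio was 1.18 ± 0.21, and its other probe gave 0.81. After TNF-α none passed, and the median was 0.00. The other lipins were measured on all arrays, and LPIN2 had ratios of 0.33 in differentiation, 0.41 after serotonin and 0.06 after TNF-α.

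Of 19 further proteins of the droplet 8 were on the array, all with a ratio. In differentiation 1 of the 8 rose (9.94% of all gene names) and 1 fell (3.56%) at least 2-fold, and the median was -0.41 against 0.12 for all gene names. CIDEC, which passes lipid between touching droplets, went from -4.69 in PIP cells to -0.82 in pMA, a ratio of 3.88 ± 0.35, but its other probe gave 0.75. CAV1, the coat protein of caveolae, fell from 6.27 to 5.15, a ratio of -1.12 ± 0.20, and its 5 probes gave -1.55 to -1.12. After serotonin none rose and 1 fell (4.73% of all gene names), with a median of 0.13. CIDEA, a relative of CIDEC, was at -1.94 in pMA and -4.01 after serotonin, a ratio of -2.06 ± 0.25. After TNF-α 1 rose (2.21% of all gene names) and none fell, with a median of 0.08, and this was again CIDEC, with a ratio of 1.94 ± 0.21 and 1.88 on its other probe. FITM2, the relative of FITM1 found in adipose tissue, had levels of -0.15 in PIP cells, -0.66 in pMA, 0.31 after serotonin and -0.80 after TNF-α. Its ratio after serotonin was 0.97 ± 0.20, with 0.83 on its other probe. Both FIT genes had their highest level on the serotonin array.

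The array held 6 of 11 further lipases and their cofactors, 5 of them with a ratio. In differentiation 1 of the 5 rose (9.94% of all gene names) and none fell (3.56%), with a median of 0.31. This was FAAH, the hydrolase of fatty acid amides, with ratios of 1.20 and 1.41 on its 2 probes. None passed after serotonin, with a median of 0.52, or after TNF-α, with a median of -0.20. ABHD5, the coactivator of ATGL, had levels of 1.62 in PIP cells, 1.13 in pMA, 1.75 after serotonin and 0.93 after TNF-α. Its ratios were -0.49 ± 0.20, 0.61 ± 0.20 and -0.20 ± 0.20 in the 3 comparisons, where PNPLA2 itself gave -0.28, -0.06 and -0.25. Between the stimulations 1 of the 5 was at least 2-fold higher after serotonin (1.83% of all gene names) and none lower (5.07%). It was PNPLA4, a relative of ATGL, at 1.59 ± 0.21, with 0.91 after serotonin and -0.68 after TNF-α against pMA. In that comparison the 8 droplet proteins had 1 higher (FITM2, 1.10) and 2 lower (CIDEA, -2.13, and CIDEC, -1.67). Triacylglycerol synthesis had 1 of 12 lower (PPAP2C, -1.05), and lipolysis signalling none of 17.

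Of 24 genes that signal to the lipases, from adrenergic receptors to protein kinase A and insulin signalling, the array held 19, and 17 gave a ratio in differentiation. Of these 1 rose at least 2-fold (9.94% of all gene names) and none fell (3.56%), with a median of 0.21. It was ADRA2A, the receptor that restrains lipolysis, with levels of -3.39 in PIP cells and -2.29 in pMA and a ratio of 1.10 ± 0.26. None of 16 passed after serotonin and none of 17 after TNF-α, with medians of 0.03 and -0.05. ADRB3, the adrenergic receptor of adipocytes, and PDE3B, the phosphodiesterase through which insulin restrains lipolysis, were not well above background on any array.

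**Figure D4:**
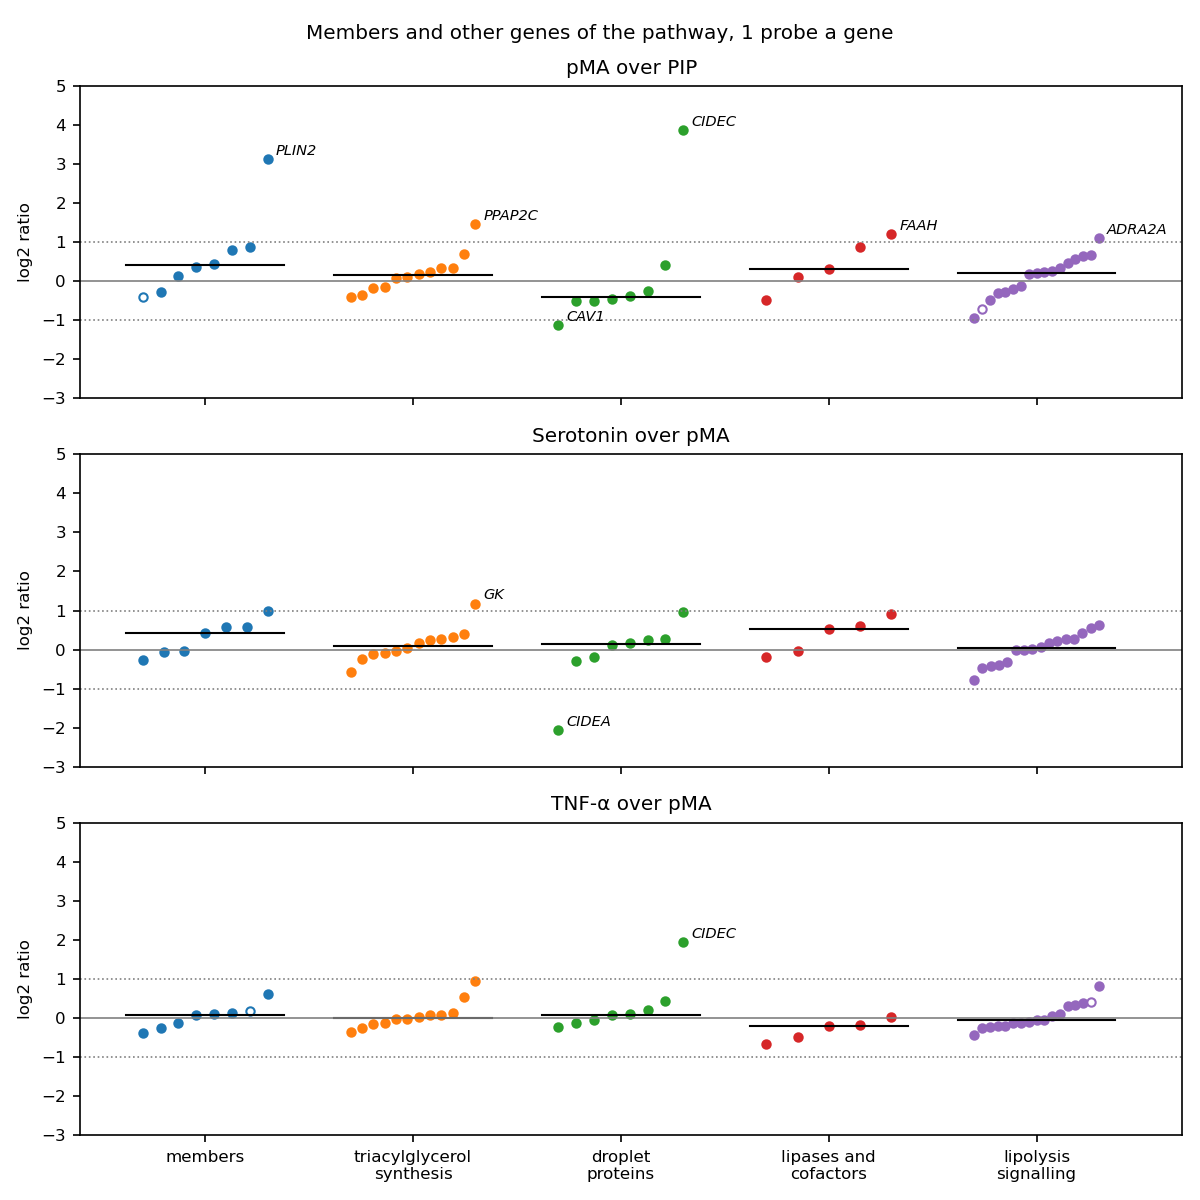
Log2 ratio of the genes described here ("members") and of the 4 lists of other pathway genes in 3 comparisons, with 1 probe for each gene, genes in order of their ratio, and open points for lower bounds. Black lines are medians, dotted lines mark 2-fold, and genes at or past 2-fold are named. In pMA over PIP cells PLIN2 at 3.14 and CIDEC at 3.88 lay apart from the rest of their groups.

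For each of the 10 genes with a level well above background on all 4 arrays and a range of at least 1 on the log2 scale, the 3 gene symbols of most similar course were sought among 4850 symbols. Likeness was measured by the distance between the 4 levels after subtraction of their mean, so that a smaller distance is a closer course, and it rests on 4 values. PLIN2 spanned 4.13, and nearest to it were ANGPTL4 at a distance of 0.676, FKBP5 at 0.694 and CEBPE at 0.854. ANGPTL4, a secreted inhibitor of lipoprotein lipase, had levels of -1.24 in PIP cells, 2.70 in pMA, 2.90 after serotonin and 2.46 after TNF-α. PLIN3 spanned 1.00, and nearest were CD14 at 0.095, SRPX at 0.123 and CCR2 at 0.144. CD14, a receptor of monocytes, is also 1 of the macrophage markers, with levels of 0.44, 0.90, 0.88 and 1.56 in the order of the arrays. FITM1 spanned 1.45, and nearest were TSTD3 at 0.121, CEBPZ at 0.140 and SPATA20 at 0.143. The other genes measured on all arrays spanned less than 1 and were not searched.

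**Figure D5:**
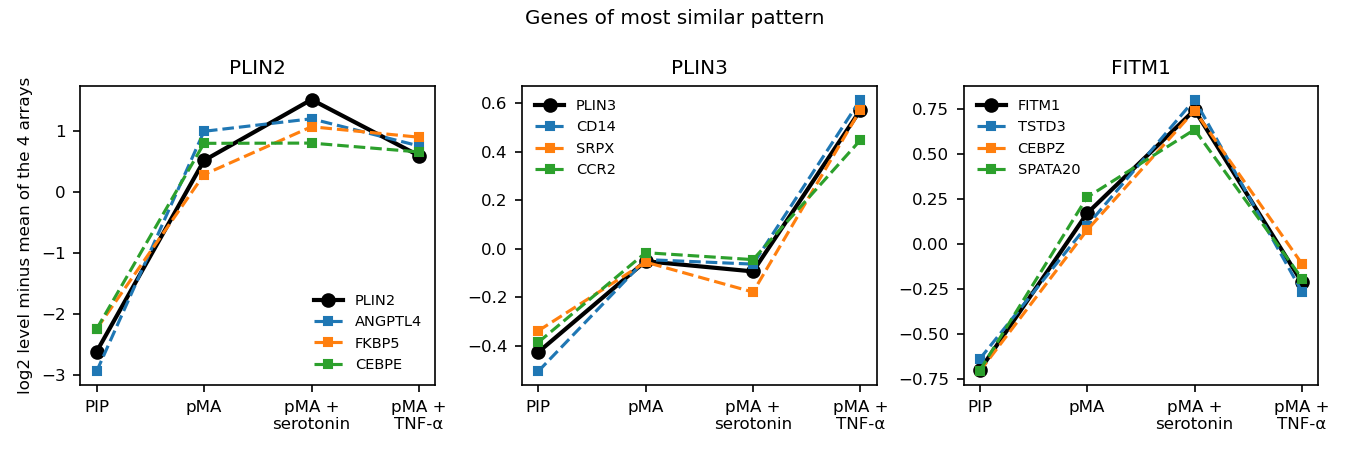
Log2 levels minus the mean of the 4 arrays for PLIN2, PLIN3 and FITM1 (black) and the 3 genes of most similar course to each (dashed); the scale of the vertical axis differs between panels. PLIN2 rose from PIP cells to pMA and was highest after serotonin, PLIN3 was highest after TNF-α, and FITM1 was lowest in PIP cells.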

How the data were processed

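Total RNA was amplified from 200 ng and labelled with Cy3 by the authors, and the deposited intensities came from porcine oligonucleotide arrays read with Agilent Feature Extraction 10.7.3.1, which subtracts the background. Other passages of the methods name a mouse array and a two-color design, which the files do not hold. The deposited series table holds a linear ratio, the processed intensity over 1 constant for each array (455 to 540), with no centring. Its column medians were 0.0581 (PIP), 0.0766 (pMA), 0.0735 (serotonin) and 0.0797 (TNF-α), and it served as an alternative.

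Outlier spots (12, 1, 3 and 4 on the PIP, pMA, serotonin and TNF-α arrays) and control spots were left out, repeated spots averaged, and log2 intensities reduced by the 75th percentile of the array. A gene took its probe of highest mean. Every probe of the 10 genes was described, and genes of similar course were the 3 nearest symbols. The genes, lists and markers were chosen with earlier results of these data known. DGAT2 and LPIN1 pairs were chosen for printing after their values were seen. Alternatives were normexp (offset 50), quantile, median and spike-in scaling, the series table, filters, probe choice, outlier spots and cutoffs of 1.5-fold and 4-fold. Calculations used Python 3.11.15, R 4.3.3 and limma 3.58.1 and were checked on simulated data. Arrays have no read depth, and their number limits the precision.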

Additional observations from a re-analysis of the deposited data

Results flagged for a closer look

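Probes outside the chosen names carried signal that bears on the DGAT genes. A probe named DGAT, whose transcript is that of DGAT1 in the RefSeq gene table, had levels of -0.07 in PIP cells, 0.35 in pMA, 0.85 after serotonin and 0.56 after TNF-α, all well above background. Its log2 ratios were 0.41 ± 0.20 for pMA over PIP cells, 0.50 ± 0.20 after serotonin and 0.21 ± 0.20 after TNF-α, so its highest level was on the serotonin array and no ratio reached 2-fold.

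A probe that carries only the cluster name TC609772, and that the files describe as similar to part of mouse DGAT2, had levels of -4.79 in PIP cells, -4.23 in pMA and -3.51 after TNF-α, and was dim after serotonin, at -5.45. Its log2 ratio after TNF-α was 0.72 ± 0.33. It was at least 1.86-fold lower after serotonin than in unstimulated pMA and at least 3.05-fold lower after serotonin than after TNF-α. The probes named DGAT2 differed between the stimulations by -0.41 and -0.84. Whether this probe binds DGAT2 was not tested.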

How the results depend on the processing

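Of 13 alternatives the cutoffs change no ratio, and the others gave 336 log2 ratios. Of these 290 moved by no more than 0.16, the standard deviation of a log2 ratio from repeated spots, and 46 by more. Many of the 290 could not move, since filters, outlier spots and probe choice leave the values of most genes unchanged. Only 1 ratio, PLIN2 in pMA over PIP cells, was past 2-fold, and it did not change sign. In pMA over PIP cells 1 gene passed 2-fold, but 3 did with the spike-in controls (PLIN2, FITM1, DGAT2), 3 with the probe of largest ratio (PLIN2, LPIN1, DGAT2), 3 at 1.5-fold (PLIN2, FITM1, DGAT2) and 2 with no filter on dim probes (PLIN2 higher, MGLL lower). After serotonin the count went from 0 to 1, PLIN2, under normexp, quantile, median and spike-in scaling and at 1.5-fold. After TNF-α it went from 0 to 1, PLIN3, at 1.5-fold. Between serotonin and TNF-α it went from 0 to 1 (FITM1) with quantile scaling, 2 (PLIN2, FITM1) with median scaling, 1 (MGLL, lower after serotonin) with no filter and 4 at 1.5-fold (PLIN2, PLIN3, FITM1, MGLL). Among all gene names, 4.50% were at least 2-fold higher and 8.68% lower in pMA than in PIP cells after median scaling, and 24.2% and 1.59% with the spike-in controls. PNPLA2 and LIPE (pMA over PIP cells), PLIN3 and PNPLA2 (serotonin) and PLIN2 and DGAT2 (TNF-α) had ratios near 0 whose sign turned with the scaling. The alternative that counts the DGAT probe as DGAT1 was chosen after seeing the data and changed no count. The dim signals of PLIN1 and MGLL limit what can be said of them. No paired analysis was possible because each group has 1 array and the only replicate number is 1.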
